A study of Mus musculus with 2 samples.

Results

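The cells described here were picked from the brain by a rule meant for conventional dendritic cells that are not migratory, and are called so below. The brain came from mice with a disease resembling neuromyelitis optica spectrum disorder, an inflammation of the central nervous system driven by antibodies to aquaporin-4. The cells number 216 of the 7768 cells kept in a library of CD45-positive brain cells, or 2.78% (95% exact Clopper-Pearson interval 2.43 to 3.17%), and 216 of 20649 cells kept in all. CD45, the product of Ptprc, is the surface protein of white blood cells, and a second library holds CD45-negative cells of the same tissue. Both libraries were labelled 24 h and came from C57BL mice aged 8 to 13 weeks, and every cell compared below carries that same disease label, strain, age and time. A healthy or vehicle library was not analysed here, and the sources used here do not give how the disease was induced, what the 24 h count from or how many animals were pooled. With 1 library per group, cells of 1 library are not replicates, so no comparison below has a replicate check and no p-value is given. Every interval is at the 95% level and reflects counting error alone.

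The members were chosen by their own transcript counts, in unique molecular identifiers (UMIs, each standing for 1 captured transcript). A member had at least 1000 UMIs, at most 20% of them mitochondrial, and at least 100 per 10000 from H2-Aa, H2-Ab1, H2-Eb1 and Cd74 together. It also had at least 1 UMI of Flt3, Zbtb46, Xcr1, Clec9a or Cd209a, at most 2 of Arg1 and Chil3, fewer than 50 per 10000 of C1qa, C1qb and C1qc, and none of Cd79a. A cell with both a Ccr7 UMI and 2 or more Ccl22 UMIs was not a member. These genes chose the cells, so their levels are a description, and the other genes of the same cells are described in the same way.

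Dendritic cells take up antigen, load peptides of it onto MHC class II molecules and present them to CD4 T cells. Conventional dendritic cells depend on the cytokine receptor Flt3 and express the transcription factor Zbtb46. Type 1 cells (cDC1) need Irf8 and Batf3, carry Xcr1 and Clec9a and present antigen of dead cells to CD8 T cells. Type 2 cells (cDC2) depend more on Irf4 or Klf4, carry Sirpa, Itgam and often Cd209a, and mainly address CD4 T cells. In the healthy brain such cells sit mostly in the meninges and choroid plexus, and after activation they take on Ccr7 and leave for lymph nodes.

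The CD45-positive library held 8662 barcodes and 76182401 UMIs, and its 7768 kept cells had a median of 6964.5 UMIs. The 216 dendritic cells had 1047 to 33970 UMIs, with a median of 12840, and together held 3.52% of the UMIs of the kept cells. Between 575 and 5293 genes were detected per cell, with a median of 3085. In the CD45-negative library, 2 of 12881 kept cells met the same rule, 0.0155% (interval 0.00188 to 0.0561%), and both of these had a Ptprc UMI. Of the members, 97.7% had a Ptprc UMI. The libraries shared 27 barcodes, and 1 of them was a member's.

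Most of the rule was decided by 2 terms. Dropping the MHC class II minimum alone would have added 135 cells, and dropping the need for a dendritic cell gene would have added 94, whose median of 6171.5 UMIs was below that of the members. The C1q limit alone kept out 36 cells, the Ccr7 and Ccl22 term 18, the Arg1 and Chil3 limit 5 and the Cd79a term 2. The members nearest the MHC class II limit had 101.5, 101.8 and 104.1 UMIs per 10000, and the nearest cells outside it had 99.9, 98.3 and 94.5. No gap in the values separates the sides of that limit. A single UMI of the 5 dendritic cell genes was all that 52 members had, 41 had 2 UMIs and 123 had 3 or more.

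The members were set against all 7552 other cells of the library and against the nearest kinds of cell. Migratory dendritic cells (18 cells) met every other term but had the Ccr7 and Ccl22 UMIs. Arg1 or Chil3 cells (104 cells), which resemble monocytes that have entered tissue, had at least 3 UMIs of these genes and few of C1q. Neutrophils were not left out of this group, and 10 neutrophil markers summed to 8015 CPM in it, against 19.5 CPM in members. Comparisons with the Arg1 or Chil3 cells are therefore not with monocytes alone. Microglia (3556 cells) had at least 10 UMIs of a small set of microglial genes, P2ry12 and Tmem119 among them, with high C1q. T cells (2222 cells, median 5833.5 UMIs), with at least 3 Cd3 UMIs and under 20 class II UMIs per 10000, stand for cells that should lack dendritic cell transcripts, since free RNA in droplets gives some UMIs of abundant genes to every cell. C1qa, a microglial transcript, had a UMI in 85.6% of members and in 77.8% of T cells, or 22.7% and 33.3% with each cell thinned to 1000 UMIs. Levels are UMIs summed over a group per 1000000 UMIs of that group (CPM), ratios are log2 ratios of CPM, and a gene counts as higher or lower when the ratio is 2-fold or more. A gene was compared when both sums together had at least 20 of its UMIs.

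The 5 markers of the label are all genes of the rule, so their levels describe the selection and cannot check the label. H2-Aa stood at 7791 CPM in members and 275 CPM in the other cells, a log2 ratio of 4.83 (4.80 to 4.86), and a member held 13.7 to 229 UMIs of it per 10000 with a median of 77.5. Cd74 stood at 17799 CPM in members and 765 CPM in the others. Both encode parts of the class II pathway, the peptide-binding alpha chain and the invariant chain that guards it, and every member had UMIs of both. Flt3 reached 104 CPM in members against 3.10 CPM in the others, with a UMI in 65.3% of members and 0.225% of T cells. Xcr1, the receptor for the chemokine Xcl1, was at 35.0 CPM in members and 0.371 CPM elsewhere, and it had a UMI in 12.5% of members and 0.18% of T cells. Cd209a, a lectin receptor, was at 186 CPM in members and 5.99 CPM elsewhere, with a UMI in 36.1% of members and 0.405% of T cells. Genes other than these 5 go against the label in 2 of the clusters described below. In the cluster of 26 cells, 21 had a UMI of at least 1 of 5 plasmacytoid dendritic cell genes. So did 85 of all 216 members. At least 2 such UMIs were found in 19 of the 26 cells and in 46 of all members. In the cluster of 13 cells, 11 had a UMI of Ccr7, which the rule used only together with Ccl22. Fscn1, a maturation gene outside the rule, was at 382 CPM in those 13 cells. The cluster of 34 cells had the highest sum of monocyte genes, as described below.

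The class II genes varied widely from cell to cell. Summed over the 4 genes, members had 101.5 to 1265 UMIs per 10000 with a median of 397.6. The median was 396.1 in migratory dendritic cells, 3.91 in Arg1 or Chil3 cells, 1.47 in microglia and 1.08 in T cells. The rule set this sum in members and migratory cells alike, and T cells were defined by a low one, so the order of these medians was largely fixed by how the groups were chosen. H2-Ab1, the beta chain that pairs with H2-Aa, had 1 to 345 UMIs per member with a median of 101, and a level of 8929 CPM in members and 316 CPM in the others. H2-Eb1, the beta chain of the second class II pair, had 3 to 338 UMIs with a median of 70 and stood at 6571 CPM in members and 249 CPM in the others. On the log2 scale the ratio of members to migratory cells was -0.35 (-0.43 to -0.27) for H2-Eb1, which had 8374 CPM in migratory cells, and 0.36 (0.28 to 0.45) for H2-Ab1, which had 6951 CPM there.

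The genes that serve class II loading, which the rule did not name, were read next. Of the 18 listed accessory genes, 7 were higher and 3 lower in members than in the other cells, with a median log2 ratio of 0.57. Over all 13468 genes with enough UMIs to compare, 7.95% were higher and 27.8% were lower, with a median of -0.43. Since the rule used this same contrast, nothing is read from the difference between those shares. These calls were 1071 higher and 3741 lower; scaling by TMM gave 1503 and 2647, and by median of ratios 1570 and 2563. Ciita, the transcriptional coactivator that switches on class II genes, was at 254 CPM in members and 8.31 CPM in the others, a log2 ratio of 4.94 (4.78 to 5.10). It had a UMI in 85.2% of members and 1.44% of T cells, or in 22.2% and 0.27% after thinning to 1000 UMIs. H2-DMa and H2-DMb1, the chains of the peptide editor H2-M, were higher. H2-DMa was at 782 CPM in members and 150 CPM in the others, and H2-DMb1 at 968 CPM in members and 124 CPM in the others. H2-DMb2, an alternative beta chain, stood at 152 CPM in members and 6.63 CPM in the others. H2-Oa and H2-Ob, whose product restrains H2-M, followed. H2-Oa was at 127 CPM in members and 12.6 CPM in the others, and H2-Ob at 71.4 CPM in members and 7.88 CPM in the others. Ifi30, a lysosomal thiol reductase, was also higher, with a log2 ratio of 1.94 (1.90 to 1.98). The 3 lower genes were Cd9, Ctsl at -3.62 and Lgmn at -3.41. Ctsl and Lgmn are lysosomal proteases that microglia hold at 1848 and 2150 CPM, against 110 and 148 CPM in members.

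The H2-M chains H2-DMa and H2-DMb1 and the class II genes did not keep the same ratio to the migratory cells. H2-DMa was at 782 CPM in members and 179 CPM in migratory cells, a log2 ratio of 2.13 (1.62 to 2.69), and H2-DMb1 was at 968 CPM in members and 207 CPM in migratory cells, a ratio of 2.22 (1.75 to 2.74). H2-Oa was at 127 CPM in members and 40.3 CPM in migratory cells, with a ratio of 1.66 (0.60 to 2.98). Ciita differed little, at 254 CPM in members and 202 CPM in migratory cells, with an interval of the log2 ratio from -0.16 to 0.87. H2-DMb2 was at 152 CPM in members and 167 CPM in migratory cells.

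Class II promoters share short boxes with known binding factors, and the stretches that hold them are printed for class II genes of the rule and for H2-M and H2-O genes that were higher in members. The Y box is an inverted CCAAT box, searched as ATTGG, which is bound by the factor NF-Y, and the X box lies upstream of it. H2-Aa (ENSMUSG00000036594) spans bases 34282744 to 34287823 of chromosome 17 on the minus strand, and H2-Eb1 spans 34305867 to 34316674 on the plus strand. Each stretch runs from 140 to 21 bases upstream of the annotated start, in the direction of the gene, from RefSeq on GRCm38.p6. Capitals mark ATTGG and, where present, a second motif AACNNATGATG, which covers part of the X box. Its letters are the bases shared by the 4 class II promoters that have TGATG ending 15 to 20 bases before ATTGG, and it was set after viewing them, so their match to it is by construction. H2-Aa lies on the minus strand at chr17:34287844-34287963, H2-Eb1 on the plus strand at chr17:34305727-34305846, H2-DMb1 on the plus strand at chr17:34153051-34153170 and H2-Ob on the plus strand at chr17:34238765-34238884.
H2-Aa: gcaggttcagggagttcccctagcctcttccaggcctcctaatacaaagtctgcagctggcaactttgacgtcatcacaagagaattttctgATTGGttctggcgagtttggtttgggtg
H2-Eb1: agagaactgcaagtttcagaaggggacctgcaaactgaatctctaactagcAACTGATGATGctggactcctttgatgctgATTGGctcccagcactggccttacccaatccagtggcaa
H2-DMb1: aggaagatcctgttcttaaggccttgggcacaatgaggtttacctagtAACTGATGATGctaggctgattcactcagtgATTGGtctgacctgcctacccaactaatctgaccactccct
H2-Ob: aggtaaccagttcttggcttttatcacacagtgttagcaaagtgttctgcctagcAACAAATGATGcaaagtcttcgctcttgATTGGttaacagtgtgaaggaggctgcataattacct
The window searched ran from 250 bases before to 50 bases after each start, on both strands, and the motifs do not overlap each other. Of 8 class II genes looked up (H2-Aa, H2-Ab1, H2-Eb1, H2-DMa, H2-DMb1, H2-DMb2, H2-Oa and H2-Ob), 7 had an entry, all but H2-Ab1. ATTGG was found in all 7, where a gene counted if any of its entries matched, and in 37.4% of all 32851 promoters, counted by entry. H2-DMa had 2 entries, 1 with no match and 1 with a match 198 bases upstream. It began 48 bases upstream of the start in H2-Aa, 59 in H2-Eb1, 61 in H2-DMb1 and 57 in H2-Ob. H2-Eb1 has 1 more match on the other strand, left in lower case, since capitals mark only matches in the direction of the gene. AACNNATGATG was found in 4 of the 7 (H2-Eb1, H2-DMb1, H2-DMb2 and H2-Ob) and in 0.137% of all promoters, and it began 89, 92, 121 and 85 bases upstream in these. These matches are a description of the letters and not of binding.

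**Figure D1:**
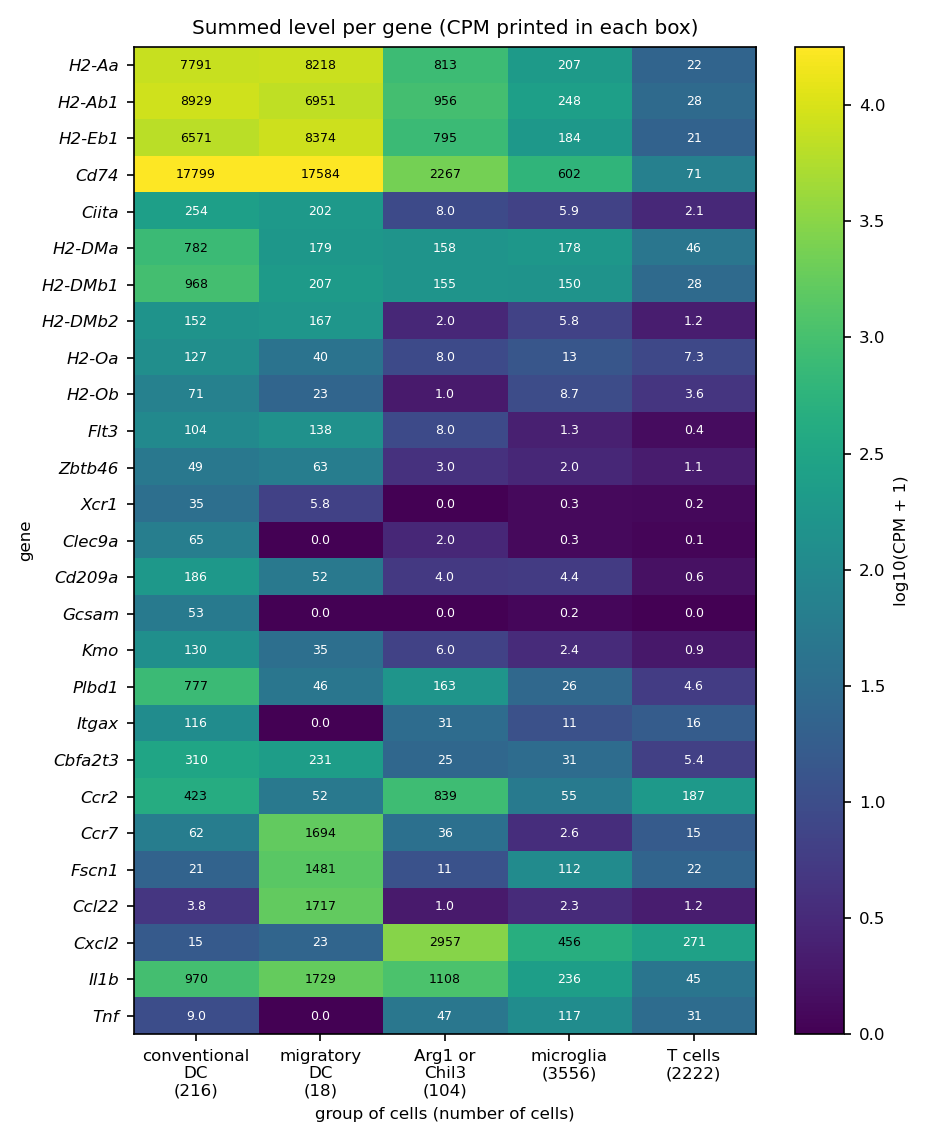
Levels of named genes in conventional dendritic cells, migratory dendritic cells, Arg1 or Chil3 cells, microglia and T cells of the CD45-positive library; colour gives log10(CPM + 1) of the summed UMIs, each box prints the CPM, and the number of cells stands under each group. Class II genes and Ciita are high in both kinds of dendritic cell, H2-DMa, H2-DMb1 and Plbd1 are highest in the conventional cells, and Ccr7, Fscn1 and Ccl22 are highest in the migratory cells.

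The members carried a broad set of dendritic cell genes beyond those of the rule. Of 23 core genes compared, 20 were higher and none lower in members than in the other cells, with a median log2 ratio of 3.35. Against microglia 21 of 22 were higher and none lower, and against Arg1 or Chil3 cells 17 of 22 were higher and none lower. Over all genes compared, 10.9% were higher and 27.6% lower than in microglia, and 10.8% were higher and 11.3% lower than in Arg1 or Chil3 cells. The rule used these contrasts too, so nothing is read from the shares. Against microglia the calls were 1385 higher and 3510 lower, which TMM scaling turned into 1784 and 2600 and median-of-ratios scaling into 1865 and 2487. Plbd1, a phospholipase-like lysosomal protein, was at 777 CPM in members and 32.6 CPM in the others. Per cell it ranged from 0 to 53 UMIs with a median of 7. Kmo, an enzyme of tryptophan breakdown, was at 130 CPM in members and 5.35 CPM in the others. Cbfa2t3, a transcriptional corepressor, was at 310 CPM in members and 30.4 CPM in the others. Itgax, which encodes the classical dendritic cell protein CD11c, was at 116 CPM in members, with a log2 ratio of 2.96 to the others. Itgax had no UMI in the 18 migratory cells, so it was at least 6.72-fold higher in members, taking 3 UMIs over the group as the floor.

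A few transcripts of the library lay mostly in these 216 cells. Of all Gcsam UMIs in the kept cells, 92.8% were in members, where it stood at 53.4 CPM against 0.151 CPM elsewhere, a log2 ratio of 8.47 (7.58 to 9.50). The share in members was 83.2% for Sept3, 77.5% for Xcr1, 71.2% for Clec9a, 55.0% for Flt3 and 53.1% for Cd209a. Gramd2 had 90.6% of its UMIs in members and Hepacam2 88.0%, though these rest on 29 and 22 UMIs. Xcr1, Clec9a, Flt3 and Cd209a are genes of the rule. Zfp366, a nuclear factor known from dendritic cells, was not in the rule and had 56.4% of its UMIs in members, at 49.6 CPM against 1.40 CPM elsewhere.

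Of 27 lineage transcription factors compared, 13 were higher and 5 lower in members than in the others, with a median of 0.79. Over all genes compared, 7.95% were higher and 27.8% lower, with a median of -0.43. Zbtb46, a gene of the rule, is among these factors. Bcl11a, needed for dendritic cell development, was at 108 CPM in members and 9.90 CPM in the others. Irf8 was at 594 CPM in members and 275 CPM in the others, with 339 CPM in microglia, which also use this factor. Irf4 was at 19.9 CPM in members and 3.34 CPM in the others.

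**Figure D2:**
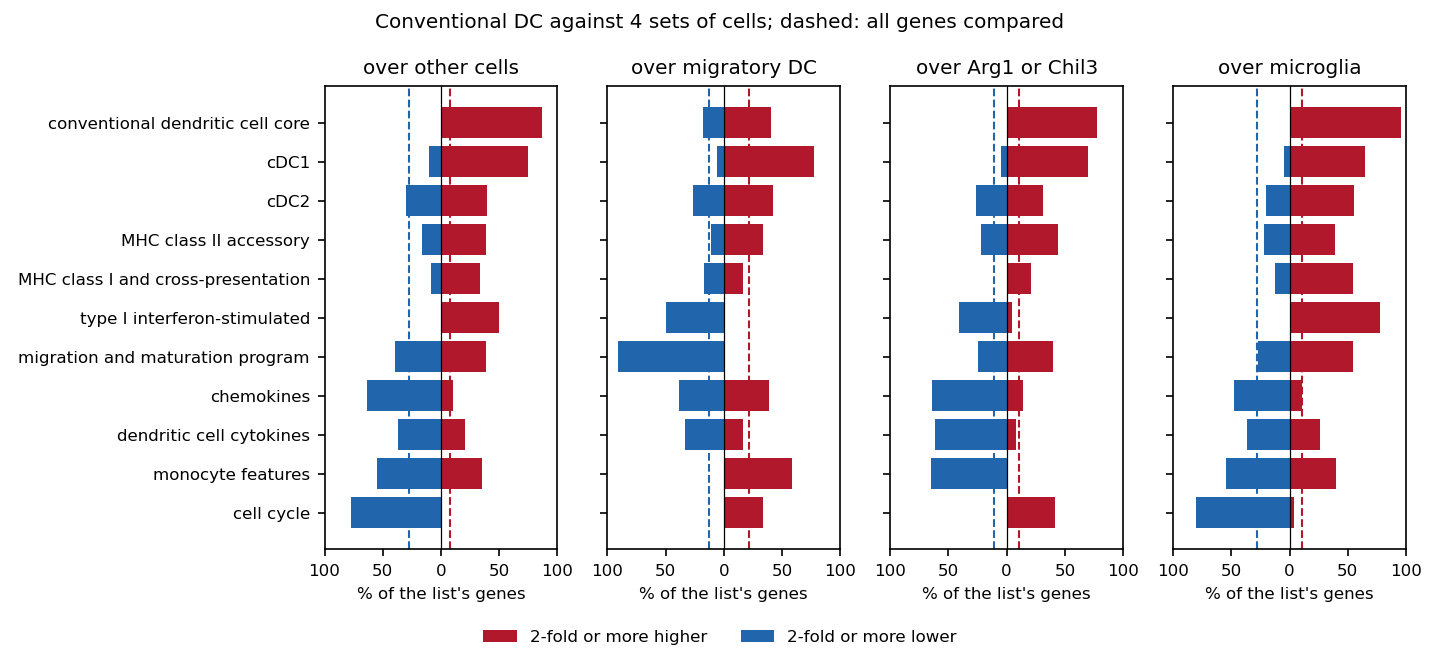
Share of each list's compared genes that were 2-fold or more higher (red, right of 0) or lower (blue, left of 0) in conventional dendritic cells than in all other CD45-positive cells, migratory dendritic cells, Arg1 or Chil3 cells and microglia; dashed lines give the same shares over all genes compared. The core dendritic cell list lies far to the right in 3 panels and the migration list far to the left against the migratory cells.

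Against the migratory dendritic cells, 21.7% of 7476 genes compared were higher and 12.8% lower, with a median log2 ratio of 0.19, and the rule's Ccr7 and Ccl22 term used this contrast. The migratory group held 173512 UMIs, so genes under 17.3 CPM there cannot be resolved. A gene with no UMI there was compared only where members were at or above that level. Such genes could be called higher but not lower. Of 21 compared genes of the migration and maturation program, 19 were lower in members and none higher, with a median of -4.18. The program's summed level was 1571 CPM in members and 24909 CPM in migratory cells. Fscn1, an actin-bundling protein of mature dendritic cells, was at 21.4 CPM in members and 1481 CPM in migratory cells. Fabp5, a fatty acid carrier, was at 281 CPM in members and 7544 CPM in migratory cells. Socs2, a brake on cytokine signalling, was at 20.7 CPM in members and 524 CPM in migratory cells. Much of the members' level lay in the 13 cells of cluster 7 described below, and the other members stood at 4.72 CPM for Fscn1, 88.9 CPM for Fabp5 and 5.51 CPM for Socs2. Cd274, which encodes the checkpoint ligand PD-L1, was at 46.2 CPM in members and 536 CPM in migratory cells. Ccr7 and Ccl22 themselves were set by the rule. On the other side were genes of the cDC1 and monocyte lists. Of the cDC1 list, 14 of 18 genes were higher and 1 lower in members than in migratory cells. Only 12 of its 20 genes had a UMI in the migratory cells, so some of these ratios are lower bounds. Of the monocyte list 10 of 17 were higher and none lower. Plac8, a small protein of blood-derived leukocytes, was at 2101 CPM in members and 478 CPM in migratory cells.

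Of 15 compared costimulatory genes, 2 were higher and 3 lower in members than in all other cells, where 7.95% of all genes were higher and 27.8% lower, so nothing is read from the count. Cd40, through which T cells license dendritic cells, was at 44.4 CPM in members and 4.75 CPM in the others, and at 179 CPM in migratory cells. It had a UMI in 26.9% of members and 0.495% of T cells. Cd86 was at 160 CPM in members and 133 CPM in the others, where microglia had 166 CPM. Cd80 was at 8.65 CPM in members and 86.4 CPM in migratory cells, a log2 ratio of -3.32 (-4.32 to -2.28).

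Of 19 compared chemokines, 2 were higher and 12 lower in members than in the other cells, with a median of -1.91 against -0.43 over all genes, of which 27.8% were lower. Of 19 compared cytokines, 4 were higher and 7 lower, with a median of -0.47, close to that of all genes. Cxcl2, a neutrophil attractant, had a log2 ratio of -5.10 to the other cells, where it was at 514 CPM, and it reached 2957 CPM in Arg1 or Chil3 cells. Tnf was at 9.02 CPM in members, against 91.8 CPM in the others, and Il1a at 3.38 CPM in members, against 62.6 CPM in the others. Il1b went the other way, with 970 CPM in members and 236 CPM in the others, a log2 ratio of 2.04 (1.98 to 2.10). It ranged from 0 to 203 UMIs per member with a median of 2, and the top 10% of cells held 62.2% of its UMIs. Arg1 or Chil3 cells had 1108 CPM of Il1b and migratory cells 1729 CPM. The T cell-polarising cytokine Il12b had 7 UMIs among members, all in 1 cell, so its level says nothing of the group. Il12a had 9 UMIs, in 1.39% of members, and 0.045% of T cells had a UMI of it. Il10 had no UMI in the 216 cells, but it had only 28 UMIs in all kept cells, so this says nothing of the group.

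The 2 higher chemokines came from few cells. Cxcl9, an attractant of Cxcr3-bearing T cells, was at 41.0 CPM in members and 2.31 CPM in the others, and all of its 109 UMIs lay in 5.09% of members (T cells 0.36%). Ccl17, an attractant of Ccr4-bearing T cells, was at 23.7 CPM in members and 6.33 CPM in the others, with UMIs in 5.56% of members (T cells 0.045%). It reached 496 CPM in migratory cells.

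Of 22 compared interferon-stimulated genes, 11 were higher and none lower in members than in the other cells, with a median of 0.92, where 7.95% of all genes were higher and 27.8% lower. Against microglia 17 were higher and none lower, where 10.9% of all genes were higher and 27.6% lower. Against migratory cells 11 of 22 were lower and none higher, where 12.8% of all genes were lower and 21.7% higher. Against Arg1 or Chil3 cells 9 were lower and 1 higher, where 11.3% of all genes were lower and 10.8% higher. These are genes that cells switch on when they sense interferon. Isg15, a ubiquitin-like protein, was at 737 CPM in members, against 2795 CPM in migratory cells, 1515 CPM in Arg1 or Chil3 cells and 201 CPM in microglia. Per cell it ranged from 0 to 95 UMIs with a median of 3. Irf7, an interferon-induced transcription factor, was at 299 CPM in members and 90.0 CPM in the others.

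Of 19 compared chemokine receptors, 5 were higher and 8 lower in members than in the other cells, with a median of -0.42, close to the -0.43 of all genes, of which 7.95% were higher and 27.8% lower. Among these receptors is Xcr1, a gene of the rule. Ccr2, which draws cells from the blood along Ccl2, was at 423 CPM in members and 119 CPM in the others, and at 839 CPM in Arg1 or Chil3 cells and 51.9 CPM in migratory cells. Per member it had 0 to 33 UMIs with a median of 3. Cx3cr1, the fractalkine receptor of microglia, was at 130 CPM in members and 2159 CPM in the others. Cfp, the complement regulator properdin, was at 497 CPM in members and 39.4 CPM in the others, and it was 1 of 2 higher genes among 19 compared complement genes, of which 13 were lower. The other was Itgax, a chain of a complement receptor. C1qa, C1qb and C1qc are on the complement list and were capped by the rule, so part of its lower count was set by the rule.

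Of 24 genes of class I and cross-presentation, 8 were higher and 2 lower in members than in the other cells, with a median of 0.63, where 7.95% of all genes were higher and 27.8% lower. Tap1, a chain of the peptide transporter, was at 208 CPM in members and 81.1 CPM in the others. B2m, the light chain of class I, was at 1946 CPM in members and 1904 CPM in the others, and at 3475 CPM in migratory cells.

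Of 27 pattern recognition genes compared, which sense microbes, 6 were higher and 9 lower in members than in the other cells, with a median of -0.25 against -0.43 over all genes, of which 7.95% were higher and 27.8% lower. Clec9a, a gene of the rule, is on this list. Tlr2 was at 32.7 CPM in members and 106 CPM in the others, and Tlr7, the sensor of single-stranded RNA, at 6.02 CPM in members and 67.8 CPM in the others. Tlr11, a sensor of protozoan profilin in mice, had 76.7% of the library's UMIs in members, though only 23 UMIs, and stood at 57.6 CPM in cluster 4 described below. Of 24 genes of early activation and tissue dissociation, 7 were higher and 2 lower in members. Fos, a transcription factor induced within minutes of a stimulus, was at 529 CPM in members, against 251 CPM in the others, 1206 CPM in Arg1 or Chil3 cells and 179 CPM in migratory cells. The heat shock gene Hspa1a was at 238 CPM in members and 109 CPM in the others. The part of tissue handling in these values was not tested.

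Of 20 compared monocyte genes, 7 were higher and 11 lower in members than in the other cells, where 7.95% of all genes were higher and 27.8% lower. None were higher and 13 lower than in Arg1 or Chil3 cells, with a median of -2.17, where 10.8% of all genes were higher and 11.3% lower. Lyz2, the lysozyme of macrophages and neutrophils, was at 221 CPM in members and 8955 CPM in Arg1 or Chil3 cells. Csf1r, the receptor that keeps macrophages alive, was at 115 CPM in members and 442 CPM in Arg1 or Chil3 cells. Fcgr1 was at 132 CPM in members, against 730 CPM in Arg1 or Chil3 cells and 475 CPM in microglia.

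Of 26 cell cycle genes, none were higher and 20 lower in members than in the other cells, with a median of -1.80, where 27.8% of all genes were lower and the median was -0.43. Mki67 was at 5.64 CPM in members and 23.3 CPM in the others, and 2.78% of members had 2 or more UMIs of Mki67 or Top2a.

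Markers of other cell types were read for the members as a whole. The 12 microglia markers summed to 673 CPM in members and 9699 CPM in the others, with all 12 lower. The 14 T cell markers summed to 149 CPM in members and 1680 CPM in the others, with all 14 lower. Over all genes compared, 27.8% were lower than in the others. The 10 neutrophil markers summed to 19.5 CPM, with Ly6g, Camp and Ngp at 0. The 10 B cell markers summed to 120 CPM, with Pax5, Ighd and Ebf1 among those at 0. At least 2 UMIs of the Cd3 genes were found in 12 members, of P2ry12 or Tmem119 in 16 and of Cd79b or Ms4a1 in 3. The doublet caller Scrublet called 177 of 8662 barcodes, or 2.04%, and 3 of the members. The part of these transcripts in the results was not tested.

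Splitting the members by the rule's own genes gave 64 cells with Xcr1 or Clec9a and no Cd209a, and 67 with Cd209a and neither of the other 2. A further 11 had both kinds and 74 had only Flt3 or Zbtb46. Xcr1 and Cd209a were never found in 1 cell, while Clec9a and Cd209a were found together in those 11. The Xcr1/Clec9a cells were deeper, with a median of 16092 UMIs against 11877 in the Cd209a cells. Because the split used Xcr1, Clec9a and Cd209a, those 3 genes are left out of what follows.

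The split separated type 1 from type 2 genes it had not used. Of 19 compared cDC1 genes, 16 were higher and 1 lower in Xcr1/Clec9a cells than in Cd209a cells, with a median log2 ratio of 2.56. The list summed to 6672 CPM in Xcr1/Clec9a cells and 1237 CPM in Cd209a cells. Of 19 compared cDC2 genes, none were higher and 15 lower, with a median of -1.92 and sums of 807 CPM in Xcr1/Clec9a cells and 2893 CPM in Cd209a cells. Over all 6845 genes compared, 5.01% (343) were higher and 11.8% (805) lower, with a median of -0.12. TMM scaling moved that split to 454 higher and 653 lower, and median-of-ratios scaling to 496 and 605.

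Irf8 was at 1212 CPM in Xcr1/Clec9a cells and 123 CPM in Cd209a cells, a log2 ratio of 3.30 (3.00 to 3.62). Batf3 was at 211 CPM in Xcr1/Clec9a cells and 15.3 CPM in Cd209a cells, and Id2, which restrains E proteins, at 1572 CPM in Xcr1/Clec9a cells and 322 CPM in Cd209a cells. These are the factors that the type 1 fate needs. Itgae, the integrin chain CD103, was at 135 CPM in Xcr1/Clec9a cells and had no UMI in Cd209a cells, so it was at least 35.1-fold higher. Tlr3, the sensor of double-stranded RNA, was at 133 CPM in Xcr1/Clec9a cells and 3.84 CPM in Cd209a cells, where it had 3 UMIs, with a ratio of 5.11 (3.53 to 7.41). Wdfy4, which type 1 cells need to cross-present cell-bound antigen, was at 313 CPM in Xcr1/Clec9a cells and 69.1 CPM in Cd209a cells. Ppt1, a lysosomal thioesterase, was at 446 CPM in Xcr1/Clec9a cells and 75.5 CPM in Cd209a cells. Cst3, an inhibitor of cysteine proteases, was far more abundant, with 23595 CPM in Xcr1/Clec9a cells and 3755 CPM in Cd209a cells. Per 10000 UMIs a cell held 6.79 to 514 of Cst3 among Xcr1/Clec9a cells (median 237) and 8.70 to 162 among Cd209a cells (median 30.4). The ranges overlapped, with most of the Xcr1/Clec9a cells above the Cd209a cells.

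The exceptions within the cDC1 list were few. Rnd3, a small GTPase, was the lower gene, at 48.6 CPM in Xcr1/Clec9a cells and 122 CPM in Cd209a cells. Zfp366 had 42.5 CPM in Xcr1/Clec9a cells and 47.3 CPM in Cd209a cells, with an interval of the log2 ratio from -0.83 to 0.52. Nfil3 lay just under the 2-fold line, at 0.97 (0.12 to 1.87).

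On the type 2 side the lectins led. Mgl2 was at 5.06 CPM in Xcr1/Clec9a cells and 189 CPM in Cd209a cells, a log2 ratio of -5.23 (-6.87 to -3.97). Clec10a was at 36.4 CPM in Xcr1/Clec9a cells and 504 CPM in Cd209a cells. Both are galactose-binding receptors, and Cd209d, a relative of the splitting gene, was at 4.05 CPM in Xcr1/Clec9a cells and 165 CPM in Cd209a cells. The factor Irf4 was at 3.03 CPM in Xcr1/Clec9a cells and 39.6 CPM in Cd209a cells, and Klf4 at 54.6 CPM in Xcr1/Clec9a cells and 177 CPM in Cd209a cells. Zeb2, a repressor of the type 1 fate, was at 40.5 CPM in Xcr1/Clec9a cells and 295 CPM in Cd209a cells. Sirpa, the receptor for the "do not eat me" signal CD47, was at 14.2 CPM in Xcr1/Clec9a cells and 127 CPM in Cd209a cells. Itgam was at 45.5 CPM in Xcr1/Clec9a cells and 258 CPM in Cd209a cells. Genes of the list that showed no such difference were Rbpj at 0.37 (0.03 to 0.73), Dusp2 at 0.05 (-0.64 to 0.76), Ltb at -0.53 (-1.21 to 0.16) and Rel at -0.70 (-1.17 to -0.23).

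**Figure D3:**
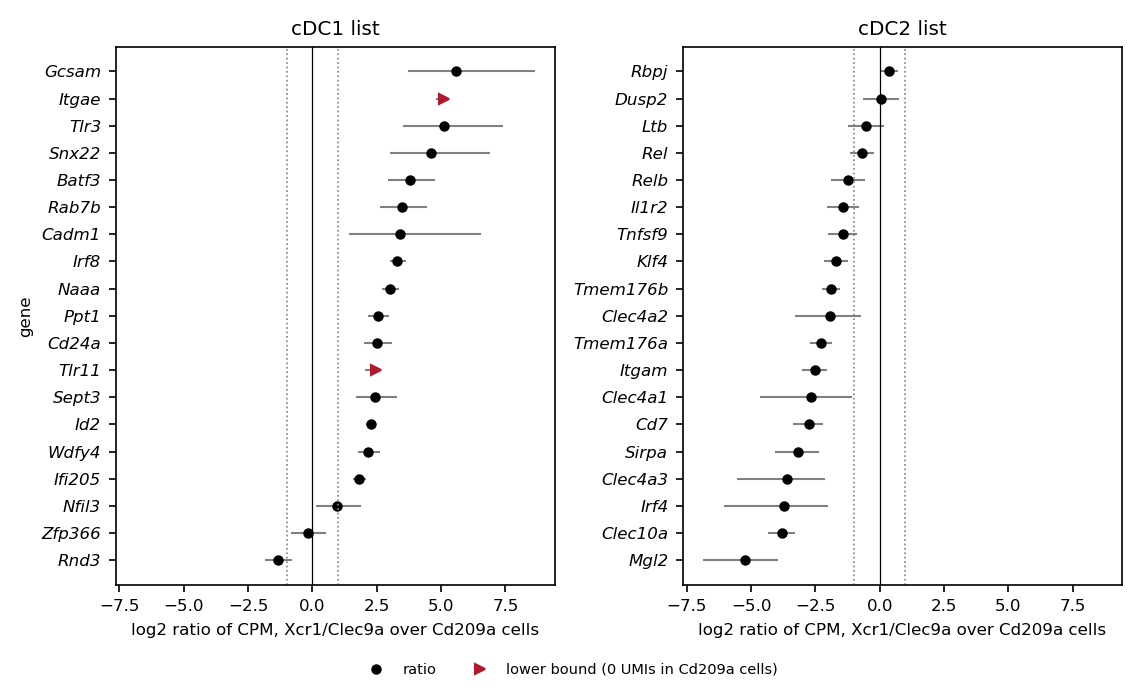
Log2 ratio of CPM in Xcr1/Clec9a cells over Cd209a cells for the compared genes of the cDC1 list (left) and the cDC2 list (right), with exact 95% intervals for counting error; red arrows are lower bounds for genes with no UMI in Cd209a cells and dotted lines mark 2-fold. Most cDC1 genes lie right of the right dotted line, apart from Nfil3, Zfp366 and Rnd3, and most cDC2 genes lie left of the left one.

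Class II presentation itself differed little between these subsets. H2-Aa was at 8138 CPM in Xcr1/Clec9a cells and 7492 CPM in Cd209a cells, and Ciita at 241 CPM in Xcr1/Clec9a cells and 243 CPM in Cd209a cells, with an interval of its log2 ratio from -0.29 to 0.27. Per cell the class II median was 448.4 UMIs per 10000 in Xcr1/Clec9a cells and 397.5 in Cd209a cells. Class II genes also fed the rule, which set their minimum.

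Activation genes differed by subset and not in 1 direction. Cd83, a maturation protein, was at 247 CPM in Xcr1/Clec9a cells and 87.0 CPM in Cd209a cells, a 2.84-fold difference (2.16 to 3.77). Cd40 was at 15.2 CPM in Xcr1/Clec9a cells and 63.9 CPM in Cd209a cells. Over all genes compared between the subsets, 5.01% were higher and 11.8% lower in Xcr1/Clec9a cells. Of 22 interferon-stimulated genes, none were higher and 8 lower in Xcr1/Clec9a cells, Ifit3 among them at 30.3 CPM in Xcr1/Clec9a cells and 160 CPM in Cd209a cells. Of 23 cytokine receptor genes, none were higher and 12 lower, with Csf1r at 49.6 CPM in Xcr1/Clec9a cells and 169 CPM in Cd209a cells. Of 17 monocyte genes none were higher and 11 lower, with Ly6c2 at 54.6 CPM in Xcr1/Clec9a cells and 327 CPM in Cd209a cells. Ly6c2 is also on the plasmacytoid list, and 340 of its 599 UMIs in members lay in cluster 6 described below, which holds 13 Cd209a cells. That list moved with it, with none of 13 genes higher and 8 lower, a median of -1.66 and sums of 1090 CPM in Xcr1/Clec9a cells and 2600 CPM in Cd209a cells. Its part in the other differences was not tested. Il1b showed less than 2-fold, at 752 CPM in Xcr1/Clec9a cells and 876 CPM in Cd209a cells. Cell cycle genes were higher on the type 1 side, with 8 of 10 higher and none lower. Stmn1, a tubulin regulator of dividing cells, was at 52.6 CPM in Xcr1/Clec9a cells and 15.3 CPM in Cd209a cells.

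Clustering the 216 cells alone gave 7 clusters of 44, 38, 34, 31, 30, 26 and 13 cells. Because the same genes formed the clusters, the values below describe them and test nothing. Clusters 1 and 4 were cDC1-like, with 33 of 44 and 21 of 31 cells from the Xcr1/Clec9a split. Clusters 2, 3 and 5 held 18 of 38, 17 of 34 and 16 of 30 Cd209a cells, and each also held cells with only Flt3 or Zbtb46. These 3 are given by number, because genes of other lists stood among their leading genes or the cDC2 genes led only weakly.

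The 2 cDC1-like clusters differed from each other. Xcr1 was at 33.2 CPM in cluster 1 and 184 CPM in cluster 4, and Tlr3 at 80.7 CPM in cluster 1 and 228 CPM in cluster 4. Cadm1, an adhesion protein of type 1 cells, was at 1.44 CPM in cluster 1 and 71.3 CPM in cluster 4. Gcsam was similar, at 128 CPM in cluster 1 and 140 CPM in cluster 4. Cxcl9 was at 143 CPM in cluster 1 and 19.2 CPM in cluster 4, and Isg15 at 683 CPM in cluster 1 and 200 CPM in cluster 4. The cells of cluster 1 were deeper, with a median of 16819.5 UMIs against 9607 in cluster 4. The mitochondrial share had an upper quartile of 1.24% and a maximum of 2.75% in cluster 1, against 4.85% and 15.8% in cluster 4. At least 2 Cd3 UMIs were found in 0% of cluster 1 cells and 12.9% of cluster 4 cells. At resolution 0.4, a single cluster of 77 cells held 56 Xcr1/Clec9a cells. The part of depth or cell quality in these differences was not tested.

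Cluster 3 carried the inflammatory genes of the set. Il1b was at 2429 CPM there, and between 522 and 1467 CPM in the other clusters. Cxcl10, an interferon-induced chemokine, was at 601 CPM in cluster 3 and at most 67.8 CPM in the others. Clec4n, the fungal sensor dectin-2, was at 276 CPM in cluster 3 and at most 25.4 CPM in the others. Isg15 was at 1873 CPM and the class II median at 517.8 UMIs per 10000, the highest of the 7. In cluster 3, 16 of the monocyte genes were found in at least 20% of cells, with a mean log2 ratio of 1.31 over the other members, and Lyz2 was at 650 CPM there. The monocyte list summed to 16651 CPM in cluster 3, the highest of the 7. Markers of border macrophages summed to 360 CPM there and at most 57.0 CPM in the others. The core dendritic cell list was lowest there, at 2140 CPM. Fcgr1 had 2 or more UMIs in 73.5% of cluster 3 cells and 33.3% of all members. Whether cluster 3 holds monocyte-derived cells was not tested.

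Cluster 2 had Agap2 as its leading gene, at 29.8 CPM there and 2.62 CPM in the other members, and Msr1, Gpr84 and Ffar2 were among its first 10. Ffar2, a receptor for short-chain fatty acids, was at 174 CPM in cluster 2. Cx3cr1 was at 377 CPM in cluster 2 and between 51.9 and 137 CPM in the other clusters. Microglia markers were found in at least 20% of cells for 7 genes in cluster 2, and for 4 to 8 genes in the other clusters. Their mean log2 ratio over the other members was 1.497 in cluster 2, the highest of the 7. The list summed to 1288 CPM in cluster 2, 1257 CPM in cluster 6 and 405 to 556 CPM in the others. Siglech is on both the microglia and the plasmacytoid list, and it alone gave 644 of the 1257 CPM in cluster 6. At least 2 UMIs of P2ry12 or Tmem119 were found in 15.8% of cluster 2 cells and 7.41% of all members. Scrublet called 2 of the 38 cells of cluster 2. The part of microglial transcripts or doublets in cluster 2 was not tested. Ciita was highest in cluster 2 too, at 377 CPM. Cluster 5 had the most Cd209a, at 375 CPM, with Irf4 at 56.9 CPM and Clec10a at 401 CPM.

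Cluster 6 was plasmacytoid-like, with 12 of the listed plasmacytoid genes in at least 20% of its 26 cells and a mean log2 ratio of 2.86 over the other members. Siglech was at 644 CPM in cluster 6 and between 6.46 and 27.4 CPM in the other clusters, Ccr9 at 273 CPM against at most 18.1 CPM, and Tcf4, the master factor of plasmacytoid cells, at 889.7 CPM against at most 339 CPM. Ly6c2 was at 1287 CPM and Cox6a2 at 488 CPM. Id2 was lowest there, at 49.2 CPM. The cluster nonetheless had Cd209a at 314 CPM, H2-Aa at 6088 CPM and a class II median of 334.6 UMIs per 10000, and 13 of its 26 cells were Cd209a cells by the split. Without the 46 members that had 2 or more UMIs of 5 plasmacytoid genes, Ccr9 turned to a log2 ratio of -1.33 against the other cells of the library. Ccr9 is among those 5 genes, so its fall follows from how the cells were taken out.

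Cluster 7 resembled the migratory cells that the rule had set aside. Ccr7 was at 1263 CPM in these 13 cells and at most 10.8 CPM in the other clusters, and 84.6% of the cells had a UMI of it. Fabp5 was at 4425 CPM, Fscn1 at 382 CPM, Socs2 at 348 CPM, Relb at 593 CPM and Cd274 at 390 CPM. These are genes of the migration and maturation program, and the cells had fewer than 2 Ccl22 UMIs or no Ccr7 UMI. H2-DMa and H2-DMb1 were lower there than in any other cluster, at 390 and 305 CPM, and Ccl5 was higher, at 2993 CPM. Without members that had a Ccr7 UMI, Fabp5 turned to a log2 ratio of -0.60 against the other cells of the library.

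**Figure D4:**
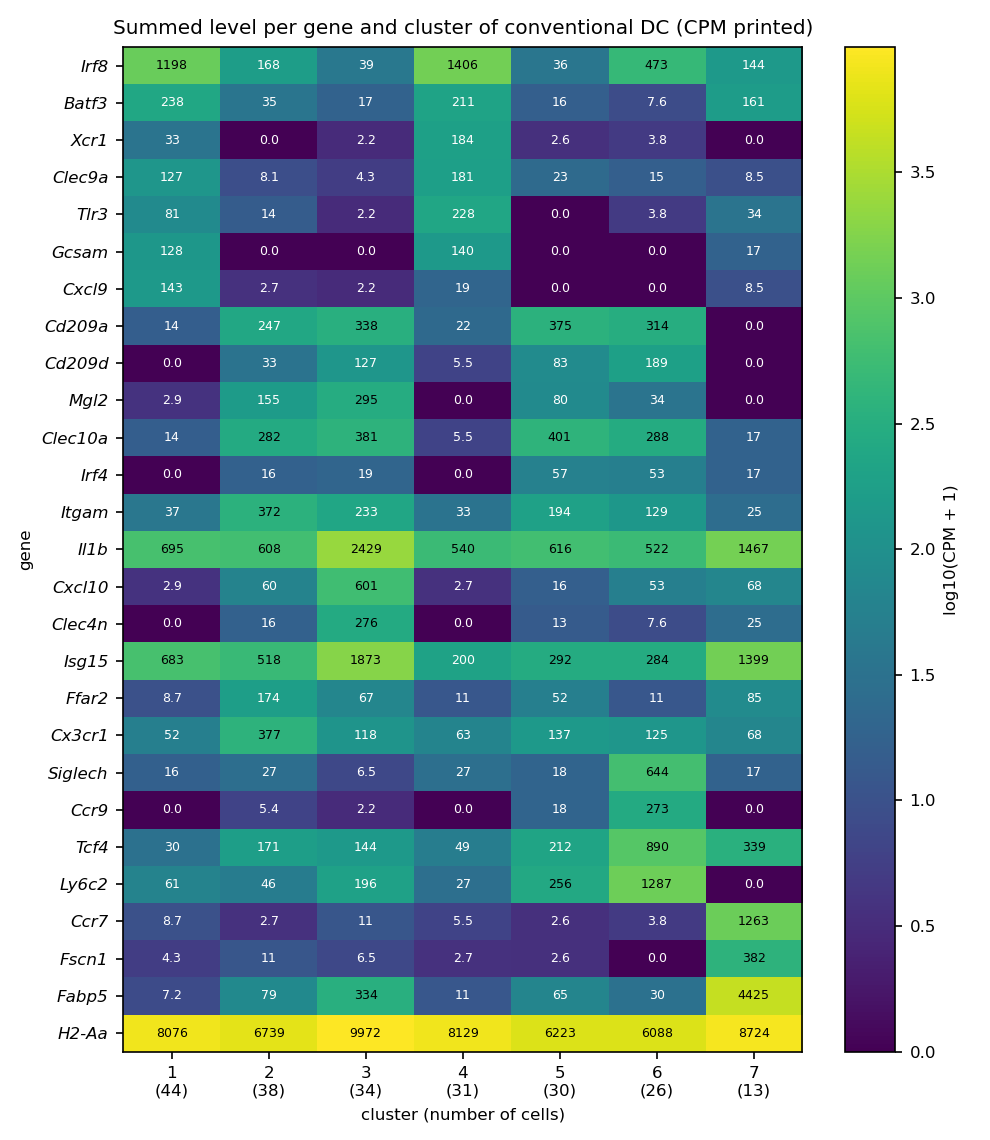
Levels of named genes in the 7 clusters of conventional dendritic cells; colour gives log10(CPM + 1), each box prints the CPM, and cell numbers stand under the clusters. Clusters 1 and 4 hold the Irf8, Batf3 and Gcsam signal, cluster 3 the Il1b, Cxcl10 and Clec4n signal, cluster 6 the Siglech and Ccr9 signal and cluster 7 the Ccr7 and Fabp5 signal, while H2-Aa is high in all 7.

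**Figure D5:**
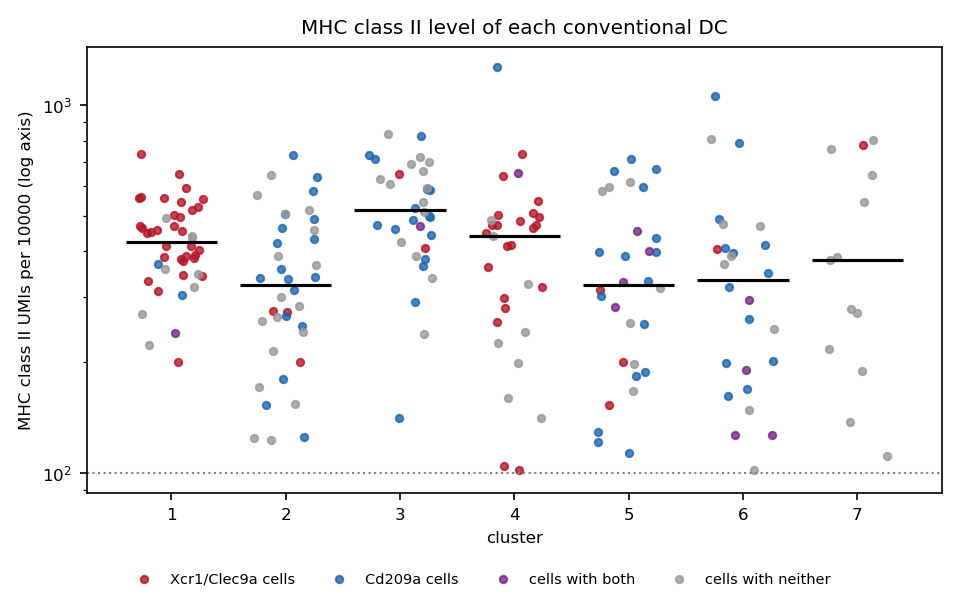
MHC class II UMIs per 10000 on a log axis for each of the 216 cells by cluster, coloured by the marker split, with the cluster median as a bar and the rule's minimum of 100 as a dotted line. Cluster 3 has the highest median, 517.8, and the ranges of all 7 clusters overlap.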

How the data were processed

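Transcript counts of brain cells from 2 libraries, 1 CD45-positive and 1 CD45-negative, were used as deposited. The authors made these UMI counts per gene and cell barcode with Cell Ranger 6.1.2 on mm10, per the submitters' processing notes. The depth was 76182401 UMIs over 8662 barcodes in the CD45-positive library and 92691820 over 14524 in the CD45-negative library. Barcodes with under 1000 UMIs (871 and 1299) or with more than 20% mitochondrial UMIs (23 and 344) were left out. Doublets called by Scrublet (scanpy 1.11.5, expected rate 6.93%) were kept, and their removal was an alternative.

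Per group of cells the UMIs were summed and scaled to CPM, and levels have exact Poisson intervals. Ratios had exact conditional binomial intervals, and shares exact Clopper-Pearson intervals. UMIs of amplified libraries are not all independent molecules, and all such intervals cover counting error only. A gene with 0 UMIs in a group was set at a floor of 3 UMIs over the group. Members were clustered with Leiden (leidenalg 0.10.2) on 1000 variable genes, 15 components and 10 neighbours at resolution 0.8. The calculations (Python 3.11.15, scipy 1.17.1) were tested on simulated data.

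The members and the 32 gene lists (503 genes, of which 496 were matched to the files) were chosen with earlier results of these data known. Genes of the rule were kept in the lists that held them. Genes named were those of the rule; per list up to 4 with the highest level in members, and the 2 highest and 2 lowest ratios; and the extremes over all genes detected in 20% of members or of a subset. Genes from these lists that fall outside that rule were named after their values were seen. The alternatives varied the rule's limits, the scaling, the minimum of UMIs, doublet removal and the clustering. Results on some genes are not reported here.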

Additional observations from a re-analysis of the deposited data

How the results depend on the processing

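Of 162 counts recomputed under the alternatives, 154 stayed within 1.5 times the value reported and 8 did not. Asking for 2 UMIs of the dendritic cell genes left 40 cells with only Flt3 or Zbtb46, against 74. Leaving out cells with a Cd3 UMI left 41 Xcr1/Clec9a cells, against 64. Leaving out cells with plasmacytoid UMIs left 6 cells with both kinds of marker, against 11. With no minimum of UMIs, 1566 genes were lower than in migratory cells, against 960, and 1544 lower than in Arg1 or Chil3 cells, against 995. In Xcr1/Clec9a over Cd209a cells the same setting gave 811 genes higher, against 343, and 1587 lower, against 805. Clustering at resolution 0.4 gave 3 clusters, against 7. Of 15041 gene and list ratios recomputed, 13296 stayed within the counting interval of the value reported (for a list's median, close to it) and 1728 moved beyond it. In 17 a ratio of 2-fold or more changed sign; smaller ratios that changed sign are counted with the first 2 classes.

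The reversed log2 ratios were these. At least 2000 UMIs gave Il12b -0.0256 against the other cells. A class II minimum of 200 gave Ccr9 -0.57 and Klk1 -1.32 against the other cells, Clu -2.39 and Slc1a2 -2.47 against microglia, and the T cell list -0.89 against Arg1 or Chil3 cells. A minimum of 2 dendritic cell UMIs gave Clec4n -0.12 against migratory cells and -0.13 against microglia. Without cells with a Cd3 UMI the T cell list was -1.94 against Arg1 or Chil3 cells and Tbx21 -0.93 against microglia. Without plasmacytoid UMIs, Ccr9 was -1.33 and Klk1 -0.64 against the other cells, and Siglech -0.32 against migratory cells. Without cells with a Ccr7 UMI, a setting chosen after seeing the data, Ccr7 was -3.76 and Fabp5 -0.60 against the other cells, Ccr7 was -1.09 against microglia and the T cell list -0.16 against Arg1 or Chil3 cells. The cause of these reversals was not tested. The Cd3 setting takes out cells by Cd3 genes, which are on the T cell list. The plasmacytoid and Ccr7 settings take out cells by Ccr9, Klk1, Siglech or Ccr7 themselves.

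Scaling moved all ratios against the other cells by 0.33 (TMM) or 0.37 (median of ratios) on the log2 scale, those against microglia by 0.28 or 0.32 and those of Xcr1/Clec9a over Cd209a cells by 0.13 or 0.17, always towards higher values in the first group. The 18 migratory cells set the limit of what that comparison can resolve. No paired analysis was possible because all groups compared are cells of 1 library and no result comes from a test.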
